A study of Homo sapiens with 23 samples.

Results

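Protein kinase CK2 and nucleophosmin were followed at the transcript level in 2 acute myeloid leukemia (AML) cell lines exposed to the CK2 peptide inhibitor CIGB-300. The genes considered were CSNK2A1, CSNK2A2 and CSNK2B, which encode the CK2 subunits, and NPM1, which encodes nucleophosmin. They were chosen by gene symbol, taking for each the probe set with the highest mean over all arrays. Of the 4 genes, 3 were measured, each by 1 probe set, among 17687 genes with a symbol of their own and 21448 probe sets tested. CSNK2B had no probe set matched to it alone and was not analysed here.

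HL-60 and OCI-AML3 cells were left untreated or received 40 µM CIGB-300 for 30 min or 3 h, and RNA was hybridised to Clariom S HT arrays. Both are established AML lines, and each stands for 1 genetic background. HL-60 is a promyelocytic line, whereas OCI-AML3 carries an NPM1 mutation that keeps part of the protein in the cytoplasm. Whether the NPM1 probe set responds alike to mutant and wild-type transcripts was not examined, which limits NPM1 comparisons between the lines. Each of the 8 groups of line, time and agent held 3 arrays, except untreated OCI-AML3 cells at 30 min with 2, because the authors removed replicate 1 of that group. For the later untreated OCI-AML3 arrays the titles and the time label disagree on the time, and the label (3 h) was used. Nothing in the labels tells whether replicates came from separate cultures, so p-values measure the spread between these arrays only, and the small number of arrays limits the precision.

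CK2 is a tetramer in which a pair of regulatory β subunits (CSNK2B) holds a pair of catalytic subunits, either α (CSNK2A1) or its paralog α' (CSNK2A2). It is constitutively active and phosphorylates serine and threonine residues in acidic stretches of many proteins. Nucleophosmin, an abundant nucleolar chaperone of ribosome assembly, is one of its major substrates. CIGB-300 is fused to a cell-penetrating Tat peptide and was designed to bind the phosphoacceptor region of CK2 substrates. It is also known to bind the α subunit. These are actions on proteins, while the arrays measured mRNA.

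The promoters are shown as background, as the 2 catalytic subunits come from separate genes on different chromosomes. The sequence is that of the reference genome and not of either cell line. A link to mRNA differences between the lines was not tested. The 120 bases before the transcription start are from RefSeq, build GRCh38.p14, 5′ to 3′ on the gene's strand. Capitals mark matches on either strand to a GC box (GGGCGG), an ETS core (CCGGAA), an E-box (CACGTG) or a TATA-like run (TATANA). CSNK2A1 lies on the minus strand (chr20:543791-543910), CSNK2A2 on the minus strand (chr16:58198107-58198226) and NPM1 on the plus strand (chr5:171387729-171387848), where the downstream of 2 listed starts was taken.
CSNK2A1: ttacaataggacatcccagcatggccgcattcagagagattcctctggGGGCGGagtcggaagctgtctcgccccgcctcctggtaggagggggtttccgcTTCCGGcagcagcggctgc
CSNK2A2: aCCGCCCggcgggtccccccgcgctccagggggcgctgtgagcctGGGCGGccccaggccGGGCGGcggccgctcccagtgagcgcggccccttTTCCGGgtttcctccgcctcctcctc
NPM1: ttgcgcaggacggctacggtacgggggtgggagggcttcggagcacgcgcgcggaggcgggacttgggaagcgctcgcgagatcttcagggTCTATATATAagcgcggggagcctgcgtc
Over 250 bases before the start, CSNK2A2 held 5 GC boxes at a GC content of 79.2%, and CSNK2A1 held 1 at 52.0%. Both catalytic genes held 1 ETS core. NPM1 held neither motif, had a GC content of 67.6% and carried 3 overlapping TATA-like matches close to the start. The upstream NPM1 start had a GC content of 46.4% and held 0 matches to any of the 4 motifs. No E-box was found in these 3 windows. Among 35116 promoter windows of 250 bases, 42.6% held a GC box, 14.5% an ETS core, 6.34% an E-box and 17.7% a TATA-like run. A match describes the sequence and was not tested as a binding site.

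All values are log2 signals from robust multi-array averaging (RMA), so a difference of 1 is a 2-fold change. The array medians lay between 5.38 and 5.44 in HL-60 and between 5.52 and 5.60 in OCI-AML3, well below all 3 measured genes. Of 4 measured granule genes of promyelocytes, all were well above the array medians in HL-60 and 3 in OCI-AML3. MPO (myeloperoxidase), at 13.09 and 13.08 in untreated HL-60 cells, was at 5.41 and 6.03 in untreated OCI-AML3 cells, close to the array medians. Of 7 listed HOX-group genes linked to mutated NPM1, only 3 were measured (HOXB6, MEIS1 and PBX3), and none of the HOXA genes. All 3 were above the array medians in OCI-AML3 and 1 (PBX3) in HL-60. Of 5 monocyte markers, 5 were above the medians in OCI-AML3 and 3 in HL-60. Of 8 lymphoid, erythroid and epithelial markers, 1 was well above the array medians in HL-60, by its mean over the arrays of the line. This was CD79A, a B cell receptor component, at 10.78 and 10.73 in untreated cells. The erythroid marker HBA1 lay near the medians in HL-60, with group means from 5.075 to 5.807. In OCI-AML3, 0 of the 8 were above the array medians by this mean.

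CSNK2A1, encoding the α subunit, had overlapping signals in the 2 lines. In untreated HL-60 cells its log2 values were 10.88, 10.93 and 10.77 at 30 min and 11.02, 11.01 and 11.10 at 3 h. With CIGB-300 they were 10.91, 10.91 and 10.94 at 30 min and 10.86, 10.89 and 10.75 at 3 h. The highest HL-60 values were thus those of untreated cells at 3 h. In untreated OCI-AML3 cells the values were 10.89 and 10.99 at 30 min and 10.98, 11.12 and 11.18 at 3 h. With CIGB-300 they were 11.01, 11.05 and 11.08 at 30 min and 10.94, 11.09 and 10.99 at 3 h. Group means ran from 10.83 ± 0.0726 (SD, n = 3, HL-60 with CIGB-300, 3 h) to 11.09 ± 0.103 (SD, n = 3, untreated OCI-AML3, 3 h). When the 8 groups were put in order of their means, every group overlapped the next in line.

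CSNK2A2, encoding the α' subunit, separated the lines. In untreated HL-60 cells the log2 values were 10.65, 10.60 and 10.62 at 30 min and 10.68, 10.68 and 10.58 at 3 h. With CIGB-300 they were 10.44, 10.58 and 10.46 at 30 min and 10.34, 10.47 and 10.45 at 3 h. Treated HL-60 arrays therefore lay below the untreated ones at both times, with a narrow gap at 30 min. In OCI-AML3 untreated cells gave 10.09 and 9.98 at 30 min and 10.17, 10.09 and 10.00 at 3 h. Treated cells gave 9.95, 10.08 and 10.10 at 30 min and 10.13, 10.10 and 10.10 at 3 h. All 11 OCI-AML3 arrays (highest 10.17) were below all 12 HL-60 arrays (lowest 10.34), and the OCI-AML3 group means spanned only 0.0702. How many of all probe sets separate the arrays of the lines in this way was not counted. Between untreated lines, 34.6% of all probe sets at 30 min and 38.9% at 3 h had limma's adjusted p under 0.05.

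NPM1 also separated the lines. Untreated HL-60 cells gave log2 values of 11.29, 11.36 and 11.15 at 30 min and 11.12, 11.25 and 11.28 at 3 h. Treated HL-60 cells gave 11.04, 11.23 and 11.11 at 30 min and 11.03, 11.10 and 11.07 at 3 h. The groups overlapped at 30 min, and at 3 h the treated arrays were just below the untreated ones. Untreated OCI-AML3 cells gave 10.84 and 10.70 at 30 min and 10.95, 10.77 and 10.79 at 3 h. Treated OCI-AML3 cells gave 10.98, 10.86 and 10.88 at 30 min and 10.71, 10.92 and 10.77 at 3 h. The highest OCI-AML3 array (10.98) was below the lowest HL-60 array (11.03). As for CSNK2A2, this separation has no count over all probe sets beside it.

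**Figure D1:**
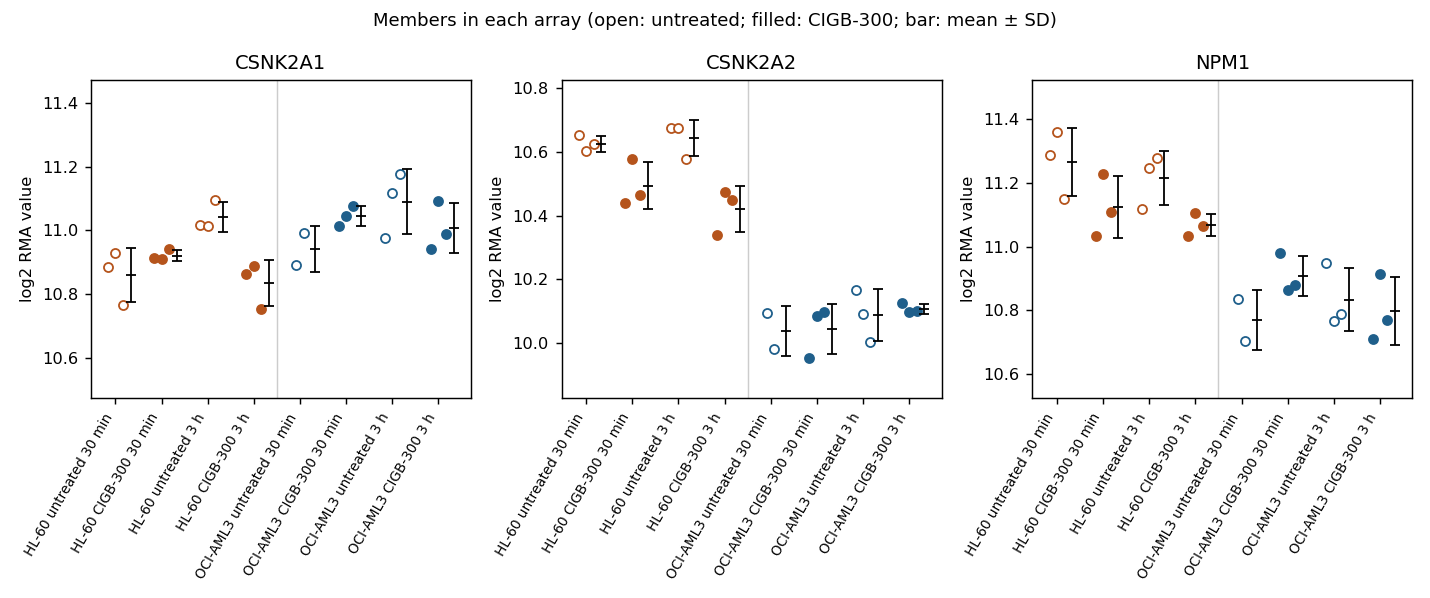
Log2 RMA value (y axis) of CSNK2A1, CSNK2A2 and NPM1 in each array of the 8 groups (x axis). Open points are untreated and filled points CIGB-300-treated arrays, HL-60 in brown and OCI-AML3 in blue, with the group mean ± SD beside them. Each y axis spans 1 log2 unit and does not start at 0. For CSNK2A2 all OCI-AML3 arrays, at 10.17 or less, lie below all HL-60 arrays, at 10.34 or more. The share of all probe sets that do so was not counted.

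The first question was whether CIGB-300 changed the mRNA of its target kinase or of nucleophosmin. A gene was called when its unadjusted p was under 0.01 and its fold change at least 1.5, the thresholds of the study. By this rule 0 of 3 genes were called in any of the 4 comparisons with time-matched untreated cells. The same rule called 0.877% and 3.87% of all probe sets for HL-60 (30 min, then 3 h), and 1.07% and 1.6% for OCI-AML3. With an adjusted p under 0.05, 0 of 3 genes passed as well. That rule passed 74 and 1195 of 21448 probe sets for HL-60 (30 min, then 3 h), and 39 and 209 for OCI-AML3. At such backgrounds a count of 0 of 3 says little by itself. The 95% intervals of all 12 differences stayed within 0.383 log2 units of 0, inside the 0.585 that equals 1.5-fold. As RNA came from whole cultures, fewer cells with a transcript and less of it per cell cannot be told apart.

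The lowest differences were found in HL-60 after 3 h. CSNK2A2 differed by -0.22 ± 0.077 (SE, n = 3 and 3, 95% interval -0.38 to -0.06), which is 14.3% less signal, with limma's adjusted p = 0.111. CSNK2A1 differed by -0.21 ± 0.079 (-0.37 to -0.04, adjusted p = 0.157) and NPM1 by -0.15 ± 0.089 (-0.33 to 0.04, adjusted p = 0.425). Treated and untreated arrays did not overlap for any of the 3 genes, as for 21.5% of all probe sets in this comparison. CSNK2A2 passed the p threshold but not the fold limit. The adjusted p of both catalytic genes went under 0.05 with 2 other settings, to 0.026 for CSNK2A1 and 0.0241 for CSNK2A2 with a trended, robust variance model, and to 0.0492 and 0.0286 without the dimmer probe sets. For CSNK2A1 the untreated cells themselves stood higher at 3 h than at 30 min, by 0.18 ± 0.079 (0.02 to 0.35, adjusted p = 0.376).

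At 30 min in HL-60, CSNK2A1 differed by 0.06 ± 0.079 (-0.10 to 0.23, adjusted p = 0.959), CSNK2A2 by -0.13 ± 0.077 (-0.29 to 0.03, adjusted p = 0.845) and NPM1 by -0.14 ± 0.089 (-0.33 to 0.04, adjusted p = 0.866). Only CSNK2A2 had groups that did not overlap, against 12.4% of all probe sets. In OCI-AML3 at 30 min the differences were 0.10 ± 0.088 for CSNK2A1 (-0.08 to 0.29, adjusted p = 0.932), 0.01 ± 0.086 for CSNK2A2 (-0.17 to 0.19, adjusted p = 0.998) and 0.14 ± 0.10 for NPM1 (-0.07 to 0.35, adjusted p = 0.904). Treated arrays were above the untreated ones without overlap for CSNK2A1 and NPM1, where 2 arrays were set against 3 and 24.1% of all probe sets did not overlap. At 3 h they were -0.08 ± 0.079 for CSNK2A1 (-0.25 to 0.08, adjusted p = 0.766), 0.02 ± 0.077 for CSNK2A2 (-0.14 to 0.18, adjusted p = 0.956) and -0.04 ± 0.089 for NPM1 (-0.22 to 0.15, adjusted p = 0.931). None of the 3 had separate groups there, against 16% of all probe sets. Comparisons at the same time and line use the same untreated arrays for all 3 genes.

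**Figure D2:**
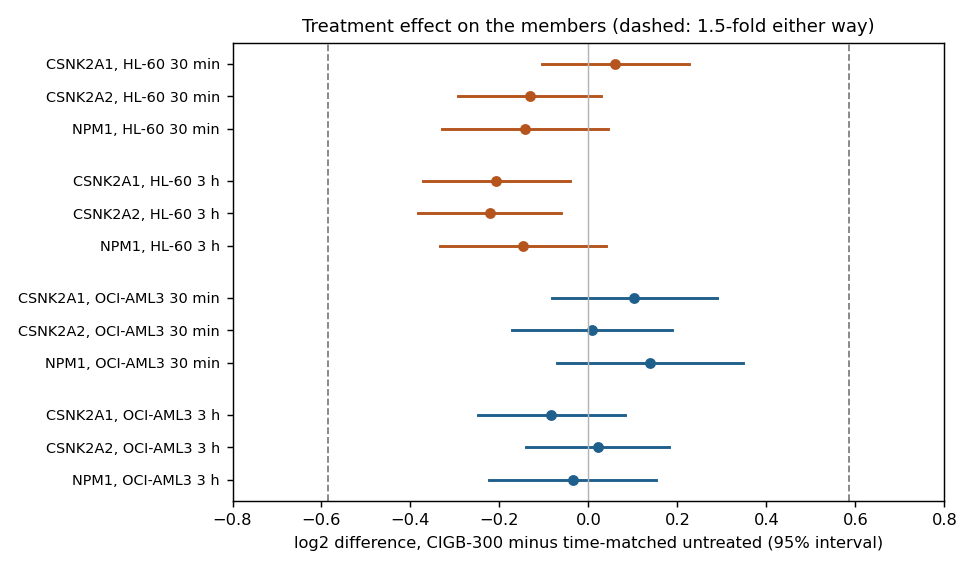
Log2 difference between CIGB-300-treated and time-matched untreated arrays (x axis) for each gene in each line and time (y axis). Points are limma estimates, bars are 95% intervals, and dashed lines mark 1.5-fold either way (0.585). All 12 intervals lie between the dashed lines, and those of CSNK2A1 and CSNK2A2 in HL-60 at 3 h lie below 0.

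Whether the response differed between lines or times was tested on the difference itself. The number of genes called was 0 of 3 in each of 4 such tests, in which 1.39% (between lines, 30 min), 2.98% (between lines, 3 h), 3.24% (between times, HL-60) and 2.18% (between times, OCI-AML3) of all probe sets were called. The CSNK2A2 effect at 3 h was 0.24 ± 0.11 higher in OCI-AML3 than in HL-60 (0.02 to 0.47, adjusted p = 0.405). For NPM1 at 30 min the corresponding difference was 0.28 ± 0.13 (-0.00095 to 0.56, adjusted p = 0.713). In HL-60 the CSNK2A1 effect was -0.27 ± 0.11 at 3 h relative to 30 min (-0.50 to -0.03, adjusted p = 0.332). The response of these genes was therefore not shown to differ between lines or times. In untreated cells compared over time, 0 of 3 genes were called in either line, against 1.5% of probe sets in HL-60 and 2.01% in OCI-AML3.

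The second question was how far the lines differ before treatment. CSNK2A2 was lower in untreated OCI-AML3 than in HL-60 cells, 1.504-fold at 30 min and 1.47-fold at 3 h. The log2 differences were -0.59 ± 0.086 (SE, n = 2 and 3, adjusted p = 1.6e-05) and -0.56 ± 0.077 (SE, n = 3 and 3, adjusted p = 7.13e-06). NPM1 was lower as well, by 1.41-fold at 30 min (-0.50 ± 0.10, adjusted p = 0.000519) and 1.30-fold at 3 h (-0.38 ± 0.089, adjusted p = 0.00181). For CSNK2A1 the differences were 0.08 ± 0.088 (-0.10 to 0.27, adjusted p = 0.542) and 0.05 ± 0.079 (-0.12 to 0.21, adjusted p = 0.676). At an adjusted p under 0.05, 2 of 3 genes passed at each time, where 34.6% and 38.9% of all probe sets passed.

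With the fold limit, 1 of 3 genes was called at 30 min (CSNK2A2) and 0 of 3 at 3 h, against 24.1% and 25% of all probe sets. The CSNK2A2 fold sat on the limit: it was not called at 30 min without untreated HL-60 replicate 1 (-0.58) or untreated OCI-AML3 replicate 3 (-0.53). At 3 h it was called without untreated HL-60 replicate 3 (-0.59) or untreated OCI-AML3 replicate 1 (-0.60). Centring each array on its median, which moved the median of all probe sets from -0.05 to -0.18 at 30 min and from -0.08 to -0.21 at 3 h, gave -0.72 and -0.69 for CSNK2A2 and -0.63 and -0.51 for NPM1. The same step turned the sign of CSNK2A1 to -0.05 and -0.08, so that no direction is given for it. It also moved the share of higher probe sets among those called at an adjusted p under 0.05 from 49.3% to 36.5% at 30 min and from 48.3% to 34.4% at 3 h.

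The difference of 2 probe sets within an array is not moved by a constant shift of that array, such as centring. CSNK2A2 minus CSNK2A1 ran from -0.524 to -0.142 in the 12 HL-60 arrays (median -0.338) and from -1.17 to -0.798 in the 11 OCI-AML3 arrays (median -0.979). The lines did not overlap, in either agent or time. NPM1 minus CSNK2A1 ran from 0.103 to 0.431 in HL-60 and from -0.39 to -0.0279 in OCI-AML3, again without overlap. NPM1 minus CSNK2A2 ran from 0.443 to 0.758 and from 0.582 to 1.03, so that the lines overlapped. CSNK2A1 overlapped between the lines and the other 2 genes did not, so the first 2 separations are largely those of CSNK2A2 and NPM1 again. How many other pairs of probe sets separate the lines was not counted. These pairs were chosen after the values were seen and are given as a description. As each probe set has its own brightness, the values do not tell which subunit is more abundant.

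**Figure D3:**
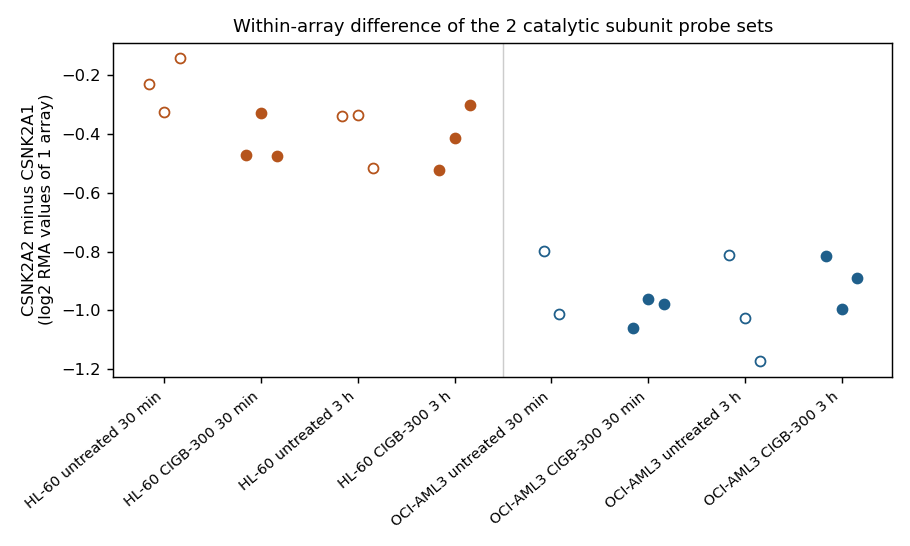
Log2 value of CSNK2A2 minus that of CSNK2A1 in the same array (y axis) for the 8 groups (x axis). Open points are untreated and filled points CIGB-300-treated arrays, HL-60 in brown and OCI-AML3 in blue. HL-60 arrays lie at -0.524 or above and OCI-AML3 arrays at -0.798 or below. The share of other pairs of probe sets that separate the lines was not counted.

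CSNK2A3, an intronless copy of CSNK2A1 that retains most of its coding sequence, had its own probe set, with log2 values from 7.589 to 7.944 in HL-60 and from 7.548 to 8.001 in OCI-AML3. Because the copies are so alike, cross-hybridisation between them is possible and was not tested. Its treatment difference in OCI-AML3 at 30 min, set against 2 untreated arrays, was 0.29 ± 0.11 (0.06 to 0.52, adjusted p = 0.602). The other differences were -0.11 and -0.09 in HL-60 (30 min, then 3 h) and -0.10 in OCI-AML3 at 3 h. Untreated OCI-AML3 cells themselves stood higher at 3 h than at 30 min, by 0.26 ± 0.11 (limma's adjusted p = 0.347). CSNK2A3 was called in none of the 4 treatment comparisons.

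Residual variation of the 3 genes was compared after the mean of each line was removed. Over 23 arrays Pearson's r was 0.17 between CSNK2A1 and CSNK2A2, 0.271 between CSNK2A1 and NPM1, and 0.489 between CSNK2A2 and NPM1. The last was exceeded by 3.09% of all genes set against CSNK2A2, and it was 0.71 in HL-60 (12 arrays) and 0.0337 in OCI-AML3 (11 arrays). The median r with all other genes was between 0.00636 and 0.031. The genes most like CSNK2A1 were EXOC3 (r = 0.814), RPAP3 (0.771) and RIMOC1 (0.765). Those most like CSNK2A2 were BLOC1S5 (0.799), ORC1 (0.781) and USF1 (0.774), and those most like NPM1 were ATIC (0.816), ANP32B (0.786) and KAT7 (0.768). The arrays share lines and treatments, and these were the highest of 17686 values for each gene, so they are descriptive.

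Genes that work with CK2 were compared in the same way. Of 43 listed CK2 substrates and partners, 35 were measured. Among them, HL-60 cells had 2 called higher and 0 lower at 30 min, then 2 higher and 1 lower at 3 h. OCI-AML3 cells had 1 called higher and 0 lower at 30 min, then 3 higher and 0 lower at 3 h. The shares of all probe sets called were 0.877% and 3.87% for HL-60 and 1.07% and 1.6% for OCI-AML3. The list medians were 0.02, -0.01, -0.04 and 0.02, beside -0.01, -0.03, -0.00 and 0.00 for all probe sets. The list was drawn up with earlier results of these data known, so its counts are not independent evidence.

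NFKBIA, the NF-kB inhibitor IκBα, rose 2.27-fold after 30 min of treatment in HL-60 (1.19 ± 0.13, adjusted p = 1.88e-05) and 7.57-fold after 3 h (2.92 ± 0.13, adjusted p = 1.21e-11). In OCI-AML3 its difference was 0.04 ± 0.14 at 30 min (adjusted p = 0.99), and at 3 h it stood 1.65-fold above untreated cells (0.72 ± 0.13, adjusted p = 0.00591). The treated OCI-AML3 means of NFKBIA were 9.74 and 9.76, while the untreated means were 9.697 at 30 min and 9.04 at 3 h, a fall of NFKBIA in the untreated cells (-0.65 ± 0.14, adjusted p = 0.0349). JUN, an AP-1 transcription factor, stood above time-matched untreated cells in all 4 comparisons, 1.81-fold and 2.56-fold in HL-60 and 3.29-fold and 5.01-fold in OCI-AML3. JUN also fell by 1.45 on the log2 scale between 30 min and 3 h in untreated HL-60 cells (adjusted p = 8.7e-05). The HL-60 means of JUN were 8.898 untreated and 9.755 treated at 30 min, then 7.448 and 8.803 at 3 h. Treated HL-60 cells thus had less JUN signal at 3 h than at 30 min. PML, the scaffold of PML nuclear bodies, fell by 0.64 on the log2 scale in HL-60 at 3 h (adjusted p = 0.00043). PLEKHO1, a CK2-interacting protein, rose 1.56-fold in OCI-AML3 at 3 h (0.65 ± 0.14, adjusted p = 0.0247), a call lost without untreated replicate 2 (0.56, adjusted p = 0.135).

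Of 29 relatives and nucleolar partners of nucleophosmin, 22 were measured, and 0 passed the thresholds in any of the 4 treatment comparisons, with differences between -0.37 and 0.43. With 0.877% to 3.87% of all probe sets called, a list of this size gives few calls or none, and the count does not show that these genes were unchanged. The nucleolar list medians were 0.01 and 0.03 for HL-60 (30 min, then 3 h) and -0.01 and 0.09 for OCI-AML3. Of 7 genes of the casein kinase 1 family, which shares its name with CK2 but is a separate family, 5 were measured. Of these, 0 passed the thresholds after treatment, a count that says little for so short a list at that background.

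**Figure D4:**
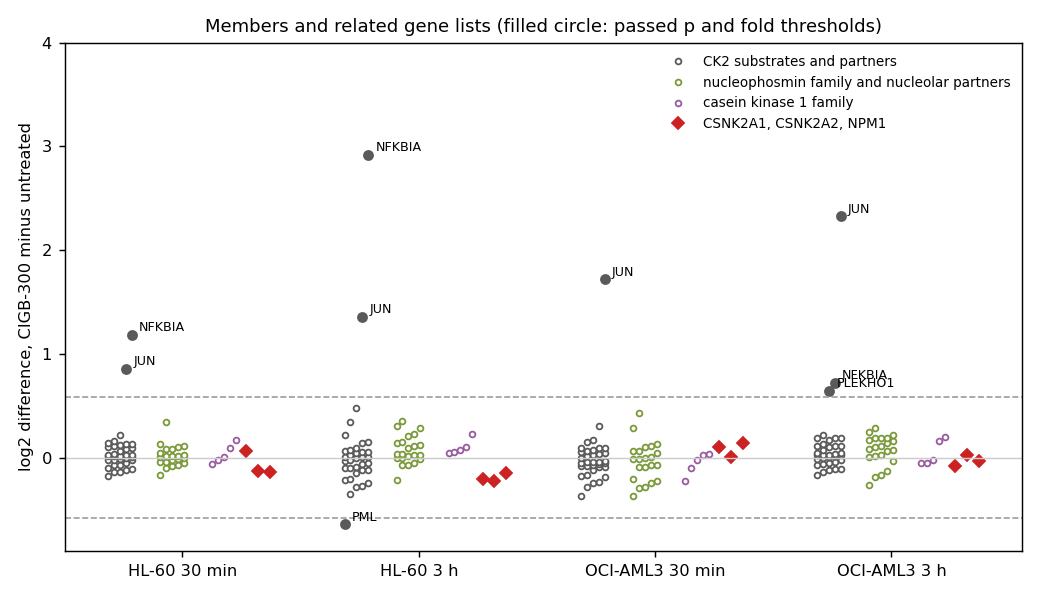
Log2 difference between CIGB-300-treated and untreated arrays (y axis) in each line and time (x axis) for CK2 substrates and partners (grey), nucleolar genes (green), casein kinase 1 genes (purple) and CSNK2A1, CSNK2A2 and NPM1 (red diamonds, in that order). Filled circles passed the p and fold thresholds and dashed lines mark 1.5-fold. JUN is filled in all 4 comparisons, whereas the 3 diamonds stay between the dashed lines throughout.

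Between untreated lines, 4 CK2 substrates and partners were higher and 6 lower in OCI-AML3 at each time, 10 of 35 genes, beside 24.1% and 25% of all probe sets. This share is close to the background, so nothing particular to the list is read from it. The list medians were -0.13 and -0.09. CTNNA1 (α-catenin) had means of 9.31 and 9.38 in OCI-AML3 and of 3.698 and 3.853 in HL-60 at 30 min and 3 h. The HL-60 means lie below the array medians, so no size is given for this difference. XRCC4, a DNA end-joining factor, was higher by 1.58 ± 0.14 and 1.21 ± 0.12, and NFKBIA by 1.59 ± 0.14 and 1.45 ± 0.13. JUN was lower, with differences of -2.05 ± 0.16 and -1.15 ± 0.14.

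Among the nucleolar genes, 2 were higher and 4 lower in OCI-AML3 at each time, 6 of 22, which is again close to the 24.1% and 25% of all probe sets. Lower beside NPM1 were NPM3, another nucleophosmin family member (-0.91 ± 0.11 at 3 h, adjusted p = 2.04e-06), the rRNA methyltransferase FBL (-0.99 ± 0.11 at 30 min, adjusted p = 6.39e-07), the ribosomal protein RPL11 (-0.80 ± 0.081 at 30 min, adjusted p = 1.52e-07) and CDKN2A (-1.04 ± 0.12 at 3 h, adjusted p = 1.01e-06), whose ARF product binds nucleophosmin. Higher were MDM2, the p53 ubiquitin ligase (1.23 ± 0.13 and 1.25 ± 0.11), and SENP3, a nucleolar SUMO protease (0.84 ± 0.13 and 1.13 ± 0.11). The list medians were -0.21 and -0.17, beside -0.05 and -0.08 for all probe sets. After centring, 2 genes were higher and 7 lower at 30 min, and 2 and 6 at 3 h. Centring also moved the median of all probe sets, to -0.18 and -0.21. With it the CK2 list went to 4 higher and 8 lower at each time. Quantile normalization gave 2 nucleolar genes higher and 5 lower at 30 min, and 2 and 4 at 3 h. The share of all probe sets called is not set beside these counts, so nothing particular to the list is read from them. No casein kinase 1 gene passed these thresholds between the lines.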

How the data were processed

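Expression was measured on Clariom S HT arrays in 23 samples of 8 groups. The authors deposited log2 values from RMA, and the submitters' processing notes also name limma. The build of the array annotation is not given in the sources used here. Of 27189 features, 5741 controls were left out and 21448 probe sets were tested, of which 17709 have 1 gene symbol.

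A mean per group was fitted to all 23 arrays with limma 3.58.1 (R 4.3.3, lmFit, contrasts.fit, eBayes), with Benjamini-Hochberg adjustment over the probe sets of each of 12 contrasts. Calls needed p under 0.01 before adjustment together with 1.5-fold either way. Intervals at 95% come from the fit. Named were the 4 genes, up to 4 called genes per list and comparison with the largest change, and the 3 genes most correlated with each. The genes and lists were chosen with earlier results of these data known. The fit was tested on simulated data. Alternatives changed the arrays fitted, the variance model, weights, scaling, filter and threshold, added the replicate number as a block, or left out each array in turn. Same-numbered samples were not taken as pairs. No 2 arrays held identical values. Figures were drawn with matplotlib 3.10.9.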

Additional observations from a re-analysis of the deposited data

Results flagged for a closer look

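For the 3 measured genes of CK2 and nucleophosmin, no difference of treatment effects between lines or times passed the adjusted threshold. The related genes looked at here were only those already called after treatment (NFKBIA, JUN, PML and PLEKHO1). Of these, 3 passed a test of the difference itself at an adjusted p under 0.05 (limma). Of 21448 probe sets, 16 and 266 passed between lines (30 min, then 3 h), and 320 and 15 between times (HL-60, then OCI-AML3). The genes were picked by their effects in the same arrays, so the count is not independent evidence. The NFKBIA effect was smaller in OCI-AML3 than in HL-60, by -1.14 ± 0.189 (SE, log2, adjusted p = 0.0151) at 30 min and by -2.2 ± 0.178 (adjusted p = 4.53e-07) at 3 h. At 30 min untreated OCI-AML3 cells (mean 9.697) already stood above treated HL-60 cells (mean 9.293). In HL-60 the NFKBIA effect was larger at 3 h than at 30 min by 1.74 ± 0.178 (adjusted p = 1.7e-05). The JUN effect at 3 h was larger in OCI-AML3 by 0.97 ± 0.203 (adjusted p = 0.0185). Treated JUN means at 3 h were 8.803 in HL-60 and 8.62 in OCI-AML3, beside untreated means of 7.448 and 6.295. The PML effect in HL-60 was -0.675 ± 0.142 at 3 h relative to 30 min (adjusted p = 0.0176). These contrasts share their untreated arrays.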

How the results depend on the processing

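Under 32 alternatives, 23 of them leaving out 1 array, 0 of 3 genes were called after treatment. Centring the arrays turned the sign of CSNK2A2 in OCI-AML3 at 3 h (-0.00684), of CSNK2A1 between lines at 30 min (-0.0477) and 3 h (-0.0831), of CSNK2A2 over time in HL-60 (-0.00509), of the change of the NPM1 effect over time in HL-60 (0.0154) and of the CSNK2A2 effect over time in OCI-AML3 (-0.009, and -0.00255 with quantile normalization), none of them called. Between lines, 2 genes were called at 30 min with centring or with the adjusted p alone. At 3 h 1 gene was called with centring or quantile normalization, and 2 with the adjusted p alone. With an array left out the number ranged from 0 to 1 at both times.

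Differences whose sign turned on 1 array, none of them called, ranged from -0.0483 to 0.0624 (CSNK2A2, OCI-AML3, 30 min), -0.0211 to 0.0597 (CSNK2A2, OCI-AML3, 3 h), -0.0941 to 0.0216 (NPM1, OCI-AML3, 3 h), -0.00543 to 0.105 and -0.00247 to 0.131 (CSNK2A2 and NPM1 over time in OCI-AML3), -0.00851 to 0.0939 (CSNK2A1 effect between lines, 30 min), -0.0536 to 0.0521 (NPM1 effect over time, HL-60) and -0.0421 to 0.0686 (CSNK2A2 effect over time, OCI-AML3). The fall of NFKBIA over time in untreated OCI-AML3 cells (-0.65) lost its call without untreated replicate 3 at 3 h (-0.575, adjusted p = 0.13).

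The replicate block left CSNK2A2 in HL-60 at 3 h at -0.222 (adjusted p = 0.128) and changed no call of the 3 genes. Same-numbered treated and untreated arrays deviated together with r over 0.1 in 0 of 11 pairs, so the numbers were not taken to pair the samples. As a hint the other way, 17 of 23 arrays were closer to arrays of their own number. Counts over all probe sets moved by over 1.5 times without dim probe sets. After treatment, 188, 230 and 343 called (30 min in HL-60, then 30 min and 3 h in OCI-AML3) became 90, 86 and 171, and with the adjusted p alone 74, 39 and 209. Over time, 321 and 431 became 184 and 249, or 196 and 167. The effect contrasts (299, 639, 695 and 467) became 138, 412 and 277 for the first, second and last without dim probe sets, and 16, 266, 320 and 15 with the adjusted p. Between lines at 3 h, 5356 became 8341 with the adjusted p. Leaving out dim probe sets reduces those tested, and the counts with the adjusted p alone apply another call rule to the same fit. Each gene has 1 probe set, so no other could be tried. All 3 measured genes are bright, and the number of arrays limits these values.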
